A study of Homo sapiens with 20 samples.

Results

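The genes that encode the proteasome, its regulators and the chaperones that assemble it were followed in MDA-MB-231, an established human triple-negative breast cancer line, before and after photothermal heating. The members were the rows whose gene name begins with PSMA to PSMG followed by a digit, without antisense names and with at least 10 counts summed over the 20 samples. The table lists 36601 genes. Their names matched 54 times, 5 of them were antisense genes, PSMA8 and PSMB11 had 0 counts, and 47 members were left. All 47 passed the filter of the test, which kept 12149 genes. PSMC3IP matches by name alone, since it encodes a factor of meiotic recombination, so 46 members are proteasome genes. By role they were 7 genes of the 20S alpha ring, 7 of the 20S beta ring, 6 ATPases and 3 other subunits of the 19S base, 8 subunits of the 19S lid, 5 genes of the immunoproteasome and its PA28 activator, 3 other activator or inhibitor genes, and 7 assembly factors.

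Each of 5 groups held 4 samples. Untreated cells had neither nanoparticles nor laser. Cells given nanoparticles alone were held for 4 h with photothermal nanoparticles, described as biomimetic, at 0.1 mg/ml in 200 µl of medium. The 3 laser groups had the same nanoparticles followed by 10 min of 808 nm light with the temperature held at 46, 50 or 54 °C. All cells were seeded at 30000 per well and grown for 24 h at 37 °C, and each sample pooled 2 wells. The time between heating and lysis is not given in the sources used here, and light without nanoparticles was not analysed here. Whether the replicates come from separate cultures is not stated in the labels, so each p-value refers to the spread over these libraries, and that spread may be technical.

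Counts came from a 3′ end kit, in which a transcript gives reads near its poly(A) tail and not along its length. Levels are therefore CPM (counts scaled to library size with TMM factors) with no division by length, and capture can still differ between genes. Library totals ran from 2401179 to 7710976 counts, and depth differed between groups. All 54 °C libraries, with 6154155 counts or more, were deeper than every library of the other groups. The 46 °C libraries held 2401179 to 3245482 counts, fewer than any 50 °C library (3884835 to 4382966). Totals without laser overlapped both, with 2709084 to 4538999 counts for nanoparticles alone and 2428487 to 4952115 for untreated cells. The part of depth in the comparisons was not tested. Markers of the line (VIM, CD44, KRT18, LGALS1 and ANXA1) summed to 4188 to 4707 CPM per group mean, and ESR1, PGR, ERBB3, CDH1, EPCAM and GATA3 together to 17.6 to 29.9 CPM. Markers of macrophages summed to at most 14.9 CPM, of fibroblasts to at most 5.89 CPM, and of lymphocytes and blood to at most 0.412 CPM. Earlier results of these data had shown that replicates 1 and 2 stand apart from replicates 3 and 4, and the labels name no batch, so values within each pair are given beside the called genes. In such bulk samples fewer cells and less RNA per cell cannot be told apart.

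The proteasome degrades proteins tagged with ubiquitin. A barrel-shaped 20S core holds the proteolytic sites on its beta rings, its alpha rings form the gate, and a 19S cap recognises, unfolds and feeds in the substrate. The base of the cap contains a ring of ATPases, and the lid contains the enzyme that removes ubiquitin. Under interferon, cells replace the catalytic subunits by immunoproteasome forms, which favour peptides for antigen presentation. In mammals the transcription factor NFE2L1 raises proteasome genes through antioxidant response elements when proteolysis falls short, and heat damages proteins that the proteasome can clear.

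By edgeR, in the model of groups alone, 2 members passed the test in any comparison. Others passed with DESeq2 or with terms for the replicates, as given below. The 2 were PSMD6, a subunit of the 19S lid (ENSG00000163636, chromosome 3, 64010549 to 64024010, minus strand, GENCODE v29 on GRCh38), and PSMA2, a subunit of the 20S alpha ring (ENSG00000106588, chromosome 7, 42916857 to 42932223, minus strand). The promoters of these genes are printed together with that of PSMD3, another lid subunit (ENSG00000108344, chromosome 17, 39980797 to 39997960, plus strand), which had the largest fitted difference among the 46 proteasome genes. They are from RefSeq on GRCh38.p14 and run, in the direction of the gene, from 250 bases before its RefSeq start to 50 after it. The windows are chr3:64023445-64023744 for PSMD6 (minus strand), chr7:42932125-42932424 for PSMA2 (minus strand) and chr17:39980557-39980856 for PSMD3 (plus strand). Capitals mark matches to CCAAT or, on the other strand, ATTGG, and to the antioxidant response element core TGACNNNGC on either strand.
PSMD6: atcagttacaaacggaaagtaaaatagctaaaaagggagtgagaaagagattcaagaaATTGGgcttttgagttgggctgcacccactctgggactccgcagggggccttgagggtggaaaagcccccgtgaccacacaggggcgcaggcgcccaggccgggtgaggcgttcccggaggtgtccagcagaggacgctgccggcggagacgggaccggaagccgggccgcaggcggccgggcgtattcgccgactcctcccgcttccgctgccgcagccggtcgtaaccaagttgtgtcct
PSMA2: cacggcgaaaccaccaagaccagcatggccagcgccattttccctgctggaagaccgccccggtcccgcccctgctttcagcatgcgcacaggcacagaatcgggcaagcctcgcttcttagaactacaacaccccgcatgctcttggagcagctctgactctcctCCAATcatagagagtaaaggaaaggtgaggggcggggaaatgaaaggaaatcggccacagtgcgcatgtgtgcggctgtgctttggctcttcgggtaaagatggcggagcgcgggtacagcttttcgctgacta
PSMD3: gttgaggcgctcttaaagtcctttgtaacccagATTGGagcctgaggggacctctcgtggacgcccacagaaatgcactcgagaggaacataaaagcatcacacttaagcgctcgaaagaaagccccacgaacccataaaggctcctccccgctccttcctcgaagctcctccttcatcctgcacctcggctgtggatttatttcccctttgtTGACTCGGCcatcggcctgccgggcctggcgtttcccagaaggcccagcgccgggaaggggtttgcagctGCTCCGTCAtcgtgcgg

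PSMD3 held 2 antioxidant response element cores, TGACTCGGC at position -37 and GCTCCGTCA at position 34 from the gene's start, and an ATTGG at position -217. PSMA2 held a CCAAT at position -84 and PSMD6 an ATTGG at position -192, and neither held the antioxidant core. No matches overlapped in these 3 windows. Of the 47 members 41 had a promoter in the table. The antioxidant core was in 14 of the 41, or 34.1%, against 13.3% of all 35116 promoters, and CCAAT on either strand in 18, or 43.9%, against 34.6%. The heat shock element, searched as 3 alternating units of GAA and TTC with NN between them, beginning with either unit and on both strands, was in 0 of 41, against 0.49% of all promoters. These are letter matches in a fixed window, and no binding was measured.

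Proteasome mRNAs were abundant in every group. The median member had a mean level of 160.9 CPM over the 20 samples, against 21.06 CPM for the median tested gene, and 45 of 47 members lay above that median. PSMA7, an alpha ring subunit (chromosome 20, 62136735 to 62143440, minus strand), was the highest at 1112 CPM and ran from 985 to 1421 CPM over the samples. It was followed by the base scaffold subunit PSMD2 at 474.2 CPM, the ATPase PSMC1 at 456.3 CPM, the catalytic beta subunit PSMB7 at 393 CPM and the lid subunit PSMD11 at 321.1 CPM. The lowest members of the same classes were PSMA5 at 99.38 CPM, PSMD4 at 160.9 CPM, PSMC6 at 111.3 CPM, PSMB3 at 109.9 CPM and PSMD6 at 85.6 CPM. Within each of these classes the highest gene thus had more CPM than the lowest by a wider margin than any of them showed between groups.

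**Figure D1:**
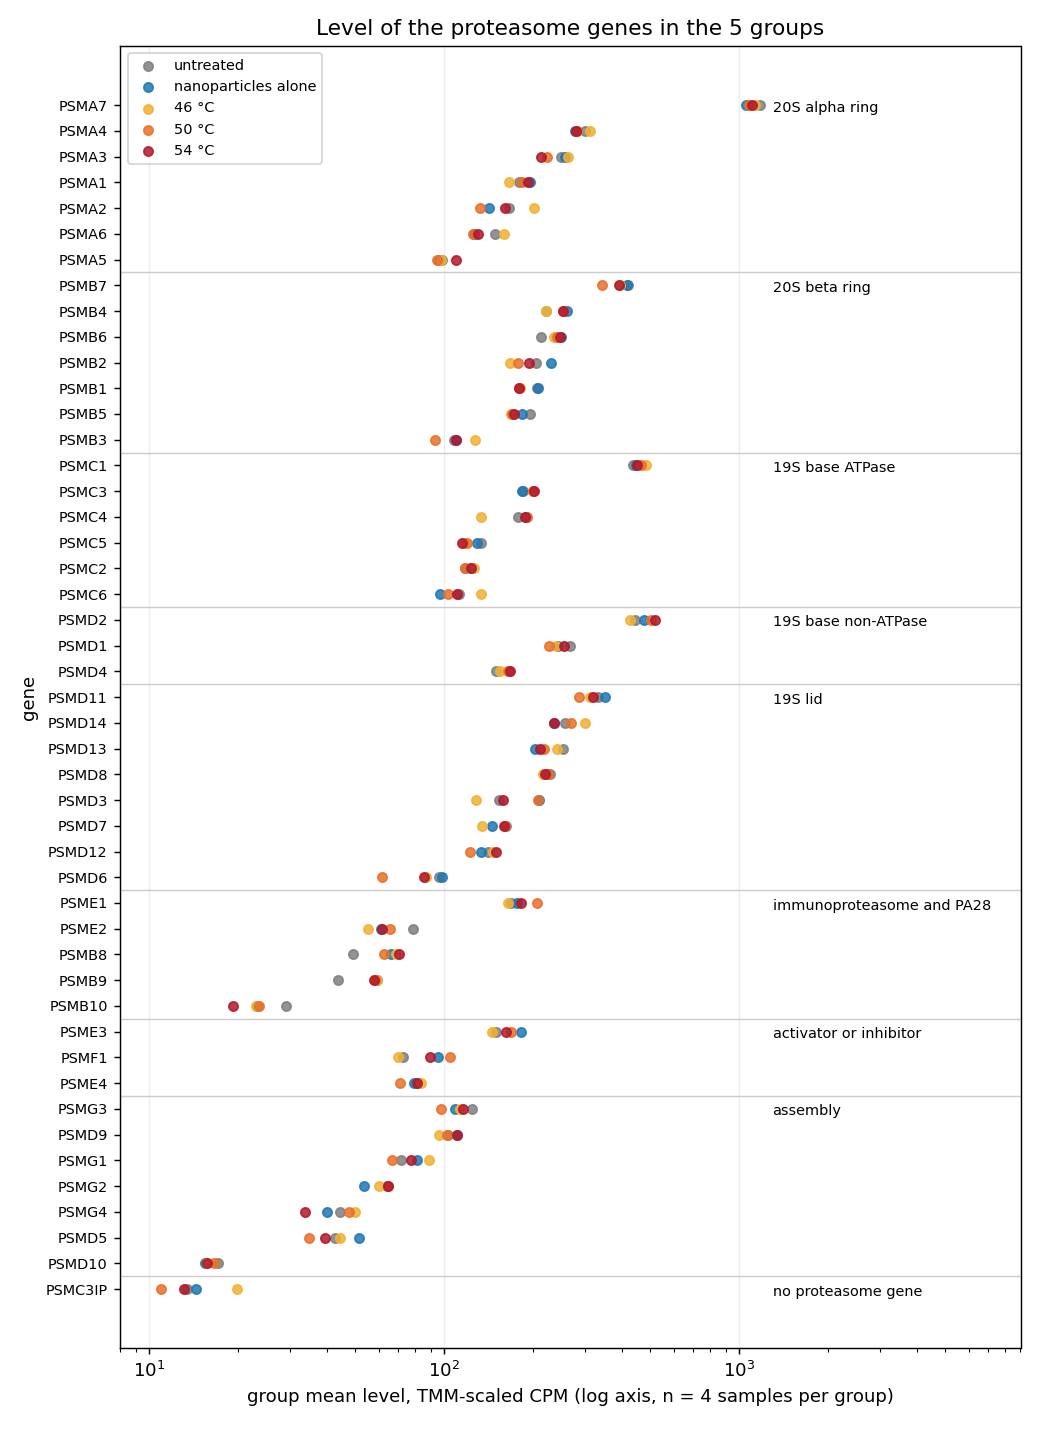
Mean level of each of the 47 genes in the 5 groups (x axis: TMM-scaled CPM on a log axis; each point is the mean of 4 samples; rows are genes, ordered by level within their role). PSMA7 stands at the right near 1112 CPM and the assembly factor PSMD10 at the left near 16.1 CPM, and the 5 points of a gene mostly lie close together.

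Summed over all 47 members, the level was 8701 ± 926 CPM in untreated cells, 8684 ± 545 CPM in the nanoparticles-alone group, 8574 ± 513 CPM at 46 °C, 8434 ± 325 CPM at 50 °C and 8611 ± 342 CPM at 54 °C (SD, n = 4 each). The group means differed by less than these SDs. For the median member the highest group mean was 1.23 times the lowest, against 1.53 times for the median of all tested genes, and 41 of 47 members stayed under 1.5. The tested genes were not matched for level: their median was 21.06 CPM, against 160.9 CPM for the members. Genes with few counts have noisier group means, so this does not show that the members were unusually even. The same limit holds for the shares under 0.5 in size given below. The shares at an unadjusted p under 0.05 were not matched for level either. Genes with more counts reach that threshold more easily, so a higher share among the members does not show an excess. The lid subunit PSMD8, named after its values were seen, was the most even at 1.06 and PSMC3IP the least even at 1.81. The summed 19S genes had 0.96 ± 0.154 times the CPM of the summed 20S genes in untreated cells, 0.96 ± 0.034 in the nanoparticles-alone group, 0.94 ± 0.068 at 46 °C, 1.02 ± 0.074 at 50 °C and 0.98 ± 0.035 at 54 °C. This ratio of 3′ end counts is not a ratio of protein subunits.

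The first comparison, of nanoparticles alone with untreated cells, concerns the particles without the heat. By edgeR's quasi-likelihood test 0 of 47 members were higher and 0 lower, and 0% of all tested genes were called. At an unadjusted p under 0.05 there were 3 members, or 6.38%, against 3.94% of all tested genes. DESeq2 called 0 members. The members' log2 fold changes had a median of 0.01, against -0.004 for all genes, and all 47 lay under 0.5 in size, as did 78.28% of all genes. The 95% interval lay within a 2-fold change either way for 46 of the 47.

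The 3 members under that unadjusted threshold were PSMF1, a proteasome inhibitor gene (chromosome 20, 1113263 to 1189415, plus strand), at 0.39 ± 0.17 (log2 fold change ± SE), PSMB8, an inducible catalytic subunit, at 0.42 ± 0.21, and PSMD13, a lid subunit, at -0.31 ± 0.14, each with an adjusted p of 1. PSMF1 had 84.5, 99.51, 104.7 and 92.87 CPM in the nanoparticles-alone group, against 71.75, 84.36, 76.31 and 58.83 CPM in untreated cells. The lowest sample with nanoparticles lay just above the highest untreated one. PSMD13 was chosen after its values were seen.

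Heating to 46 °C, set against nanoparticles alone, called 0 members higher and 0 lower by edgeR, against 0.963% of all tested genes. DESeq2 also called 0. With a term for replicates 1 and 2 against 3 and 4 in the model, 1 member was called higher (PSMA2) and 2 lower (PSMD3 and PSMB2), and 2.16% of all tested genes were called. At an unadjusted p under 0.05 there were 9 members, or 19.1%, against 11% of all tested genes, 4 of them higher and 5 lower. The members' median log2 fold change was -0.01, against 0.01 for all genes, and 44 of 47 members lay under 0.5 in size, against 71.87% of all genes. The 95% interval lay within a 2-fold change either way for 45 of 47.

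Subunits of the same ring stood on both sides of zero at 46 °C. In the alpha ring PSMA2 had 0.51 ± 0.16 (adjusted p = 0.14), while PSMA1 had -0.24 ± 0.15, and in the beta ring PSMB2 had -0.46 ± 0.16 (adjusted p = 0.198) and PSMB3 0.21 ± 0.18. Among the ATPases PSMC6 had 0.46 ± 0.18 (adjusted p = 0.274) and PSMC4 -0.51 ± 0.18 (adjusted p = 0.215). In the lid PSMD14, the deubiquitinase, had 0.35 ± 0.14 (adjusted p = 0.293), and PSMD3 had -0.71 ± 0.26 (adjusted p = 0.269). No class had more than 2 members under the unadjusted threshold. With the term for the replicate pairs the adjusted p was 0.0106 for PSMA2, 0.037 for PSMB2 and 9.69e-05 for PSMD3. PSMA1, PSMB2, PSMC4 and PSMD3 were chosen after their values were seen.

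PSMD3 had 141.9, 190.9, 75.22 and 103.7 CPM at 46 °C in replicates 1 to 4, against 266.5, 247.4, 140.1 and 185.5 CPM in the nanoparticles-alone group. Replicates 1 and 2 were higher than replicates 3 and 4 in each of the 5 groups, and the groups overlapped. Its log2 fold change was -0.63 within replicates 1 and 2 (adjusted p = 0.017) and -0.86 within replicates 3 and 4 (adjusted p = 0.0211). It passed the test within each pair, and over all samples with the term for the pairs but not in the model of groups alone.

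At 50 °C against nanoparticles alone PSMD6 fell and no other member passed. It had 78.37, 49.64, 57.64 and 60.05 CPM at 50 °C, against 88.59, 97.76, 98.3 and 108.8 CPM in the nanoparticles-alone group. All 4 samples at 50 °C lay below all 4 in the nanoparticles-alone group. Such a separation rests on the same values as the test and is no further support for a gene. The share of all tested genes separated in this way was not counted, for this or any other comparison. The log2 fold change was -0.68 with an SE of 0.17 (95% interval -1.02 to -0.34; adjusted p = 0.0228, edgeR).

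PSMD6 averaged 96.1 ± 6.48 CPM in untreated cells, 98.4 ± 8.28 in the nanoparticles-alone group, 87 ± 7.27 at 46 °C, 61.4 ± 12.1 at 50 °C and 85.2 ± 13.9 at 54 °C (SD, n = 4 each). At 54 °C the samples had 89.57, 84.47, 66.71 and 100 CPM, of which 1 lay within the range at 50 °C. The steps on either side of 50 °C did not pass: 50 °C against 46 °C had -0.50 ± 0.17 (adjusted p = 0.158), and 54 °C against 50 °C had 0.47 ± 0.17 (adjusted p = 0.482). Within replicates 1 and 2 the difference between 50 °C and nanoparticles alone was -0.54 (adjusted p = 0.249) and within replicates 3 and 4 it was -0.82 (adjusted p = 0.148), so neither pair passed alone. The call was lost without 50 °C replicate 2, 3 or 4 or nanoparticles-alone replicate 2, 3 or 4, with an adjusted p of up to 0.121.

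The member count at 50 °C against nanoparticles alone was thus 0 higher and 1 lower by edgeR, against 1.22% of all tested genes, and DESeq2 called the same single gene lower. At an unadjusted p under 0.05 there were 5 members, or 10.6%, against 11.4% of all tested genes, and all 5 were lower. The other 4 were the assembly factor PSMD5 at -0.55 ± 0.23, PSMB2 at -0.37 ± 0.16, PSMD11 at -0.30 ± 0.12 and PSMB7 at -0.29 ± 0.13, with adjusted p from 0.279 to 0.359. The members' median was -0.04, against 0.02 for all genes, and 45 of 47 lay under 0.5 in size, against 72.05% of all genes.

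Other classes of RNA moved in the same comparison, and RNA quality itself was not measured here. Of 13 mitochondrially encoded mRNAs 6 were called higher at 50 °C and 0 lower, and their sum ran from 151700 to 211000 CPM at 50 °C, against 107200 to 125000 CPM in the nanoparticles-alone group. Of 7 tested long noncoding RNAs 2 were called higher and 1 lower, and the sum of the 8 listed ran from 3835 to 5292 CPM at 50 °C, against 1724 to 2568 CPM in the nanoparticles-alone group. Most of this sum was MALAT1, with a mean of 3725 CPM at 50 °C and 1562 CPM in the nanoparticles-alone group. NORAD went the other way, with 99.43 and 181.6 CPM, so the sum does not describe the list as a whole. The part of these shifts in the PSMD6 result was not tested. The members took 0.785% ± 0.051 of all counts at 50 °C and 0.878% ± 0.0448 in the nanoparticles-alone group.

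**Figure D2:**
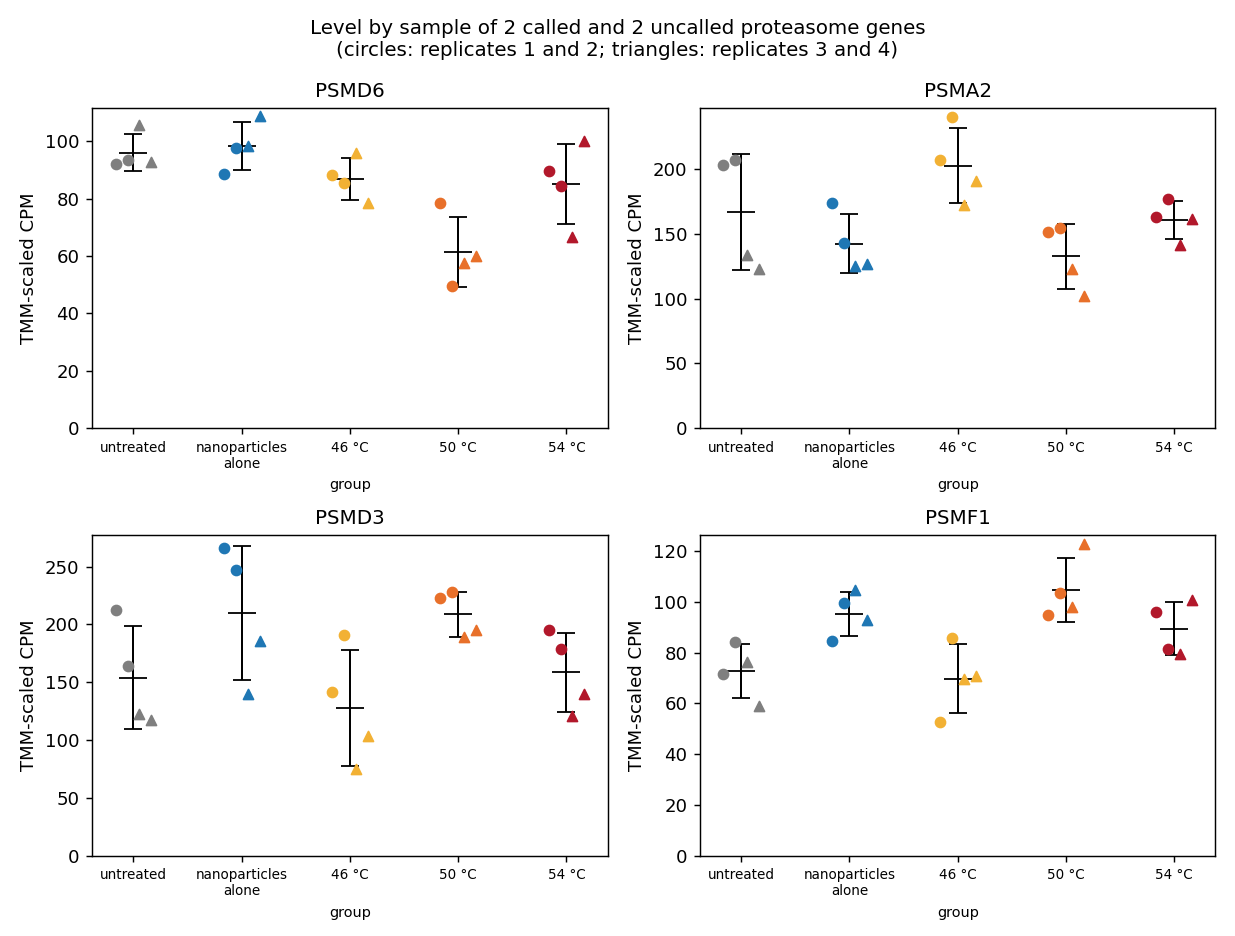
Level of PSMD6, PSMA2, PSMD3 and PSMF1 in each sample (y axis: TMM-scaled CPM from 0; x axis: group; circles are replicates 1 and 2, triangles replicates 3 and 4; bars are the mean ± SD of 4 samples). The 50 °C samples of PSMD6 lie from 49.64 to 78.37 CPM, below all in the nanoparticles-alone group, and the circles of PSMD3 lie above its triangles in each group.

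At 54 °C against nanoparticles alone no member moved past either threshold. By edgeR 0 were higher and 0 lower, against 0.123% of all tested genes, DESeq2 called 0, and 0 members had an unadjusted p under 0.05, against 5.75% of all tested genes. The median was -0.001, against 0.01 for all genes. The members ran from -0.41 for PSMD3 to 0.27 for the assembly factor PSMG2. All 47 lay under 0.5 in size, against 77.01% of all genes, and the 95% interval lay within a 2-fold change either way for 46 of 47.

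Between 50 °C and 46 °C PSMA2 fell. It had 151.2, 154.6, 122.6 and 101.6 CPM at 50 °C, against 206.6, 240.5, 172.4 and 191.1 CPM at 46 °C. All 4 samples at 50 °C lay below all 4 at 46 °C. The log2 fold change was -0.61 with an SE of 0.16 (95% interval -0.94 to -0.29; adjusted p = 0.0362, edgeR).

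PSMA2 averaged 166.7 ± 44.6 CPM in untreated cells, 142.3 ± 22.7 in the nanoparticles-alone group, 202.6 ± 28.8 at 46 °C, 132.5 ± 25.1 at 50 °C and 160.6 ± 14.6 at 54 °C (SD, n = 4 each). Its level at 50 °C lay near that in the nanoparticles-alone group (-0.10 ± 0.16), and the highest mean was at 46 °C. Within replicates 1 and 2 the difference between 50 °C and 46 °C was -0.55 (adjusted p = 0.0454), and within replicates 3 and 4 it was -0.70 (adjusted p = 0.0746). The call was lost without 46 °C replicate 1 or 2 or 50 °C replicate 3 or 4, with an adjusted p of up to 0.211. The annotation places another protein-coding gene, AC010132.3, over 15318 bases of PSMA2 on the same strand, and that gene has no row in the table.

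In this step edgeR called 0 members higher and 1 lower, against 1.19% of all tested genes, while DESeq2 called 2 higher, PSMF1 and PSME1, and 2 lower, PSMA2 and PSMD6. Over all genes DESeq2 called 125 higher and 135 lower in this step, or 5.12% of those it gave an adjusted p. At an unadjusted p under 0.05 there were 11 members, or 23.4%, against 10.6% of all tested genes, 4 of them higher and 7 lower. PSMF1 had 94.67, 103.7, 98.16 and 122.9 CPM at 50 °C, against 52.54, 85.92, 69.74 and 70.78 CPM at 46 °C. These ranges did not overlap, and the log2 fold change of 0.59 ± 0.17 missed the threshold of edgeR (adjusted p = 0.0727). With the term for the replicate pairs PSMF1 passed (adjusted p = 0.0266), as did PSMD3 (adjusted p = 3.75e-05), and 2.81% of all tested genes were called. PSMD3 had 0.70 ± 0.26 (adjusted p = 0.289), with 0.44 within replicates 1 and 2 (adjusted p = 0.159) and 1.101 within replicates 3 and 4 (adjusted p = 0.000792). The members' median was -0.05, against -0.004 for all genes, and 41 of 47 lay under 0.5 in size, against 73.8% of all genes.

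Mitochondrial mRNAs stood far apart between these temperatures, with 12 of 13 called higher at 50 °C and sums of 151700 to 211000 CPM at 50 °C, against 42440 to 53920 CPM at 46 °C. Of 7 tested long noncoding RNAs 0 were called higher and 1 lower, and the 8 listed summed to 3835 to 5292 CPM at 50 °C, against 3494 to 4839 CPM at 46 °C. MALAT1 again made up most of these sums. The part of the mitochondrial and long noncoding RNAs in the PSMA2 result was not tested. At 46 °C against nanoparticles alone 9 of the 13 mitochondrial mRNAs were called lower and 3 of the 7 long noncoding RNAs higher.

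The 2 comparisons of 54 °C with the lower temperatures held no called member. Against 50 °C edgeR called 0 higher and 0 lower, against 0.198% of all tested genes, with 2 members under an unadjusted p of 0.05, or 4.26%, against 6.02% of all tested genes. They were PSMD6 and the assembly factor PSMG4, at 0.47 ± 0.17 and -0.50 ± 0.23. Against 46 °C edgeR called 0 and 0, against 0.634% of all tested genes, with 6 members under an unadjusted p of 0.05, or 12.8%, against 8.56% of all tested genes, 3 higher and 3 lower. DESeq2 called 0 members in both. The medians were 0.03 against 50 °C and 0.01 against 46 °C, beside -0.005 and 0.001 for all genes.

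**Figure D3:**
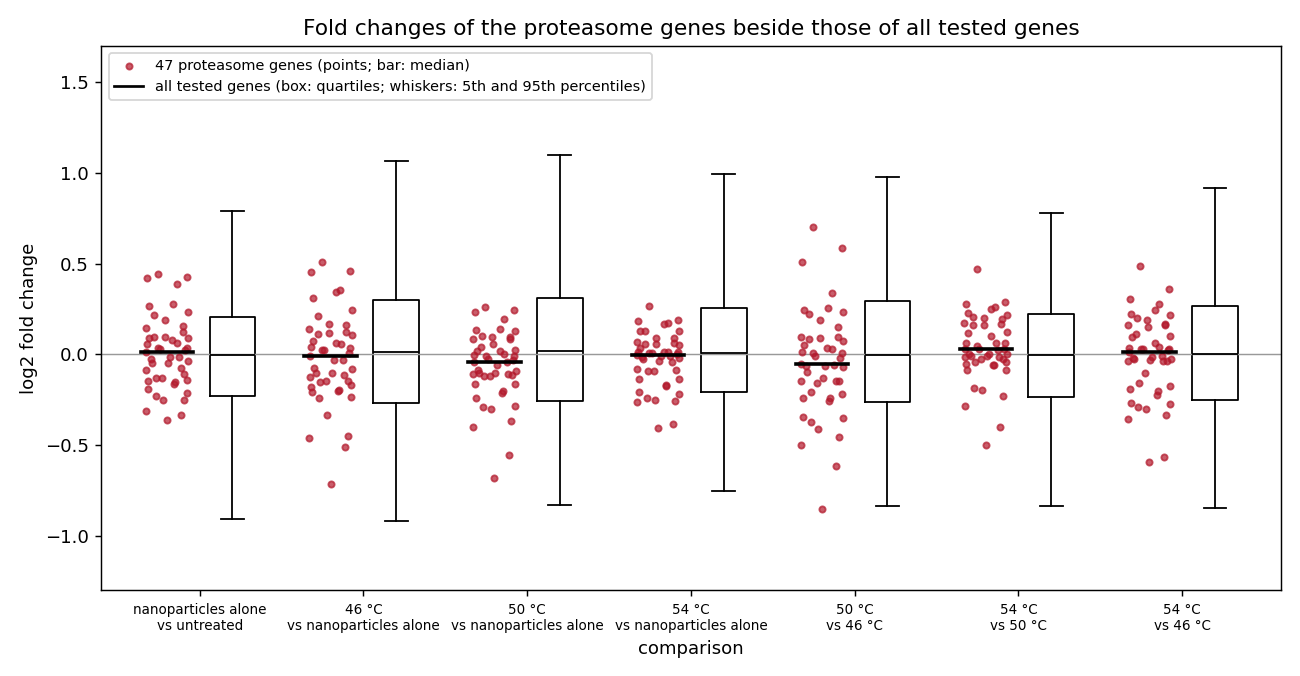
log2 fold changes of the 47 genes (points, with the median as a bar) beside those of all 12149 tested genes (box: quartiles; whiskers: the 5th and 95th percentiles) in the 7 comparisons. The members' medians lie between -0.05 and 0.03. The 3 laser groups are each compared with the same nanoparticles-alone samples.

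By role, the 20S alpha ring had PSMA2 as its single called member in 7 comparisons. Its class median ran from -0.16 at 54 °C against 46 °C to 0.11 at 46 °C against nanoparticles alone. The summed alpha ring had 2323 ± 439 CPM in untreated cells, 2150 ± 124 in the nanoparticles-alone group, 2336 ± 336 at 46 °C, 2126 ± 208 at 50 °C and 2195 ± 109 at 54 °C. PSMA7 supplied about 1055 to 1180 CPM of this in each group mean. The beta ring had no called member in the model of groups alone. Its 7 genes all had negative values at 50 °C against nanoparticles alone, from -0.37 to -0.04, none of them past the test. Against the same nanoparticles-alone samples 0 of the 7 were positive at 54 °C and 1 at 46 °C, while 4 were positive at 50 °C against 46 °C. The summed beta ring had 1570 ± 311 CPM in untreated cells, 1659 ± 195 in the nanoparticles-alone group, 1497 ± 110 at 46 °C, 1459 ± 94.2 at 50 °C and 1548 ± 121 at 54 °C.

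The 3 constitutive catalytic subunits of the beta ring are PSMB5, with chymotrypsin-like activity, PSMB6, with caspase-like activity, and PSMB7, with trypsin-like activity. PSMB5 averaged 195.1 ± 30 CPM in untreated cells, 183.9 ± 14.3 in the nanoparticles-alone group, 168.8 ± 14.6 at 46 °C, 169.8 ± 10.1 at 50 °C and 173.3 ± 16.9 at 54 °C. PSMB6 averaged 213.5 ± 48, 248.7 ± 32.3, 236.1 ± 18.4, 241.9 ± 17.5 and 246.6 ± 33.5 CPM in the same order of groups. PSMB7 averaged 420.4 ± 69.9, 417.3 ± 45.3, 394.1 ± 38.7, 342 ± 23.8 and 391.5 ± 84.2 CPM. None passed the test in any comparison, and their log2 fold changes lay between -0.29 and 0.22.

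PSMB8, PSMB9 and PSMB10 are the interferon-inducible forms that take the places of PSMB5, PSMB6 and PSMB7. PSMB8 had 76.3, 52.49, 58.27 and 77.39 CPM in the nanoparticles-alone group, against 62.44, 57.59, 32.13 and 44.51 CPM in untreated cells, and these ranges overlapped (0.42 ± 0.21; adjusted p = 1). PSMB9 had 54.03, 58.83, 70.06 and 55.03 CPM in the nanoparticles-alone group, against 68.03, 42.65, 45.85 and 18.58 CPM in untreated cells, with overlap as well (0.42 ± 0.23; adjusted p = 1). Untreated replicate 4 was the lowest of the 20 samples for PSMB9.

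Under heating, PSMB8 averaged 68.9 ± 17.7 CPM at 46 °C, 62.4 ± 9.17 at 50 °C and 70.4 ± 10.9 at 54 °C, and PSMB9 59.1 ± 7.32, 58.4 ± 8.38 and 58 ± 9.18 CPM. PSMB10 was the lowest of them, at 29.1 ± 7.25 CPM in untreated cells, 23.2 ± 7.62 in the nanoparticles-alone group, 23.1 ± 12.2 at 46 °C, 23.5 ± 4.1 at 50 °C and 19.2 ± 12.1 at 54 °C. Neither heating nor its steps moved the inducible subunits past the test. The genes of PSMB8 and PSMB9 overlap by 568 bases on opposite strands, where both genes start. The kit reads near the poly(A) tail, at the other end of each gene. The strand setting of the counting is not given in the sources used here.

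**Figure D4:**
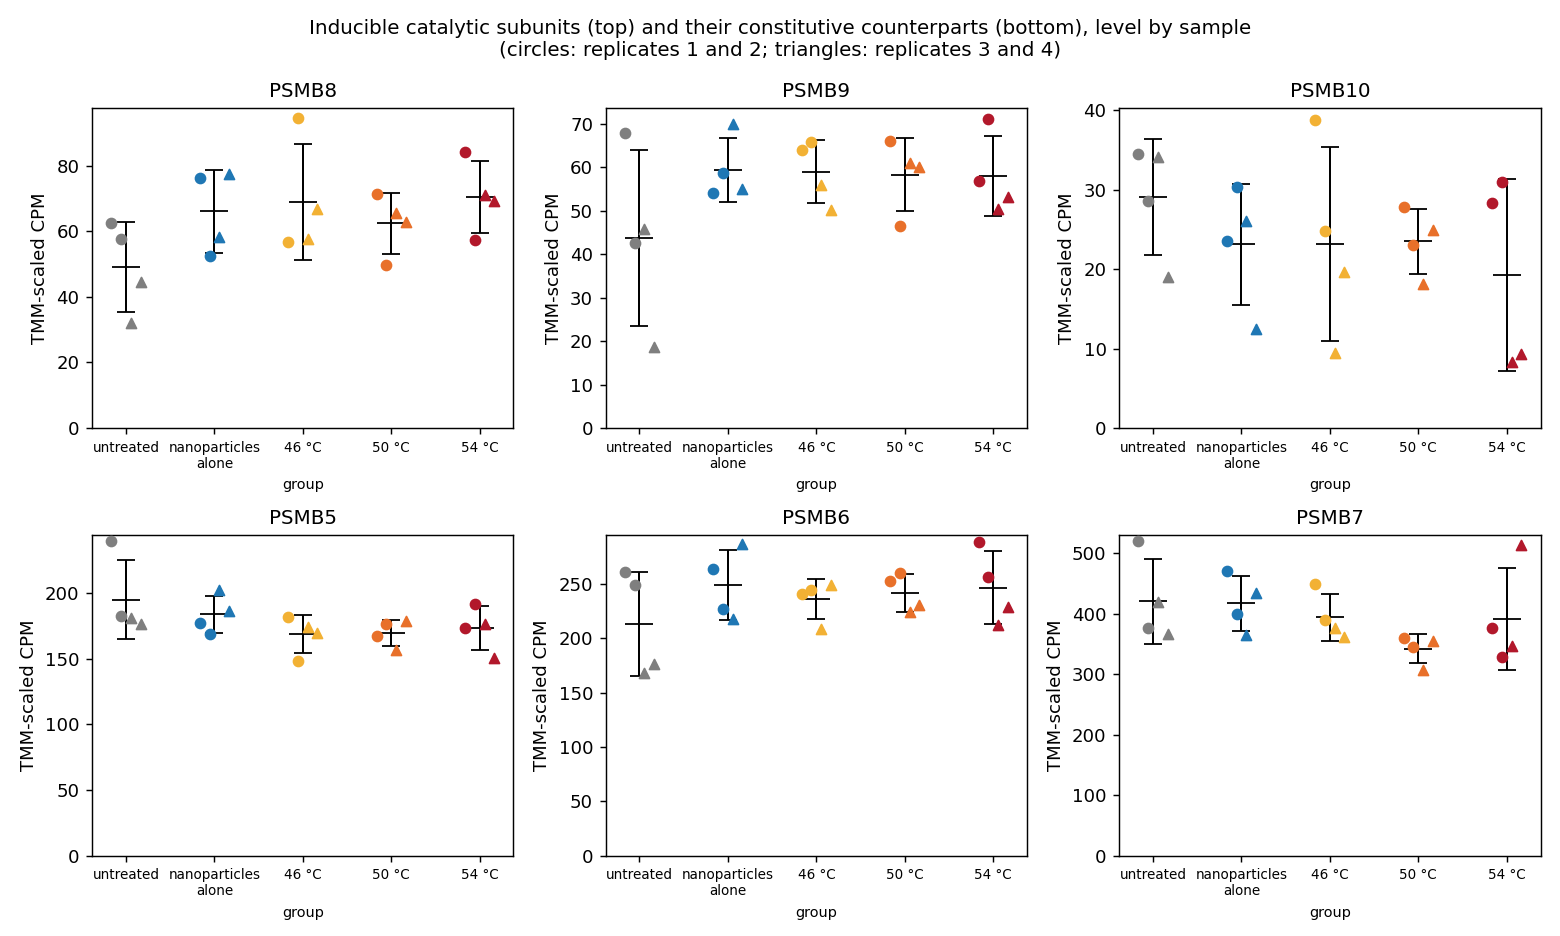
Level of the inducible catalytic subunits PSMB8, PSMB9 and PSMB10 and of their constitutive counterparts PSMB5, PSMB6 and PSMB7 in each sample (y axis: TMM-scaled CPM from 0; x axis: group; bars are the mean ± SD of 4 samples). The inducible subunits reach at most 94.58 CPM in any sample, and their groups overlap.

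PSME1 and PSME2, the interferon-inducible subunits of the PA28 activator, did not pass by edgeR in any comparison. DESeq2 called PSME1 higher at 50 °C against 46 °C. PSME1 had 207.3 ± 10.1 CPM at 50 °C and 164.3 ± 19.9 CPM at 46 °C. By edgeR this was the only difference of these 2 genes under an unadjusted p of 0.05 (0.34 ± 0.13; adjusted p = 0.263). PSME2 averaged 78.7 ± 15.9 CPM in untreated cells and 55.1 to 65.5 CPM in the other groups. PSME3, which encodes the nuclear PA28 gamma activator, had 145 ± 23.3 CPM at 46 °C and 182.4 ± 35.4 CPM in the nanoparticles-alone group (-0.33 ± 0.15; adjusted p = 0.373). PSME4, which encodes the activator PA200, had group means of 70.7 to 83.4 CPM.

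Of 8 genes linked to interferon and antigen presentation (among them IRF1, NLRC5, TAP1, TAP2, TAPBP, B2M and ERAP1), all tested, IRF1 rose at 50 °C against nanoparticles alone and none fell. IRF1, a transcription factor that acts on PSMB8, PSMB9 and PSMB10, had 76.2 ± 12.2 CPM at 50 °C and 40.4 ± 7.83 CPM in the nanoparticles-alone group (0.91 ± 0.22; adjusted p = 0.0193). In the same comparison PSMB8 had -0.09 ± 0.21, PSMB9 -0.03 ± 0.23 and PSMB10 0.02 ± 0.37. In the other 6 comparisons 0 of the 8 genes were called by edgeR, with 0 to 3 at an unadjusted p under 0.05. DESeq2 called 1 higher (IRF1) and 1 lower (B2M) at 50 °C against 46 °C and 0 in the other 5.

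The 19S base ATPases and the other base subunits had no called member in the model of groups alone. Summed, the 6 ATPases had 1165 ± 110 CPM in untreated cells, 1170 ± 154 in the nanoparticles-alone group, 1194 ± 62.5 at 46 °C, 1196 ± 127 at 50 °C and 1188 ± 74.9 at 54 °C. PSMC4, chosen after its values were seen, had 123, 115.5, 106.6 and 190.4 CPM at 46 °C, against 216.1, 234, 125.8 and 184.5 CPM in the nanoparticles-alone group. Its difference was -0.92 within replicates 1 and 2 (adjusted p = 0.000128) and -0.06 within replicates 3 and 4 (adjusted p = 0.988). PSMD2, a scaffold subunit of the base, had 0.28 ± 0.12 at 54 °C against 46 °C, and PSMD4, a ubiquitin receptor, had group means of 149.9 to 168 CPM.

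The lid held PSMD6 as its called member, and its sum was 1626 ± 106 CPM in untreated cells, 1600 ± 58.4 in the nanoparticles-alone group, 1568 ± 82.6 at 46 °C, 1553 ± 68.1 at 50 °C and 1541 ± 75.6 at 54 °C. PSMD14, which removes ubiquitin chains from substrates, had 300.9 ± 39.5 CPM at 46 °C, its highest group mean, against 235.8 ± 26.4 CPM in the nanoparticles-alone group, and did not pass. At 54 °C it had 235.4 ± 31.2 CPM. PSMD11, which stabilises the joint of cap and core, had 286.3 ± 15.9 CPM at 50 °C and 352.2 ± 24.8 CPM in the nanoparticles-alone group. None of the other lid genes passed in any comparison in the model of groups alone.

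Among the 7 assembly factors none was called. PSMG1 and PSMG2, partners in building the alpha ring, had -0.41 ± 0.19 and 0.10 ± 0.21 at 50 °C against 46 °C, and PSMG3 and PSMG4, the other pair, -0.22 ± 0.17 and -0.07 ± 0.24. PSMG4 had 33.8 ± 4.47 CPM at 54 °C, against 49.9 ± 16.9 CPM at 46 °C (-0.56 ± 0.23). Of the chaperones of the base, PSMD5 had 35 ± 3.88 CPM at 50 °C, against 51.3 ± 10.6 CPM in the nanoparticles-alone group (-0.55 ± 0.23; adjusted p = 0.279), PSMD9 had group means of 96.4 to 110.8 CPM, and PSMD10 of 15.5 to 17.1 CPM. With 15 to 136 counts in a library, PSMD10 had an SE of about 0.39 in each comparison, against a median of about 0.16 over the members.

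PSMC3IP, the member that is no proteasome gene, had the largest fitted difference of the 47, -0.85 ± 0.41 at 50 °C against 46 °C (adjusted p = 0.43). It averaged 10.9 ± 2.03 CPM at 50 °C and 19.8 ± 9.02 CPM at 46 °C.

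**Figure D5:**
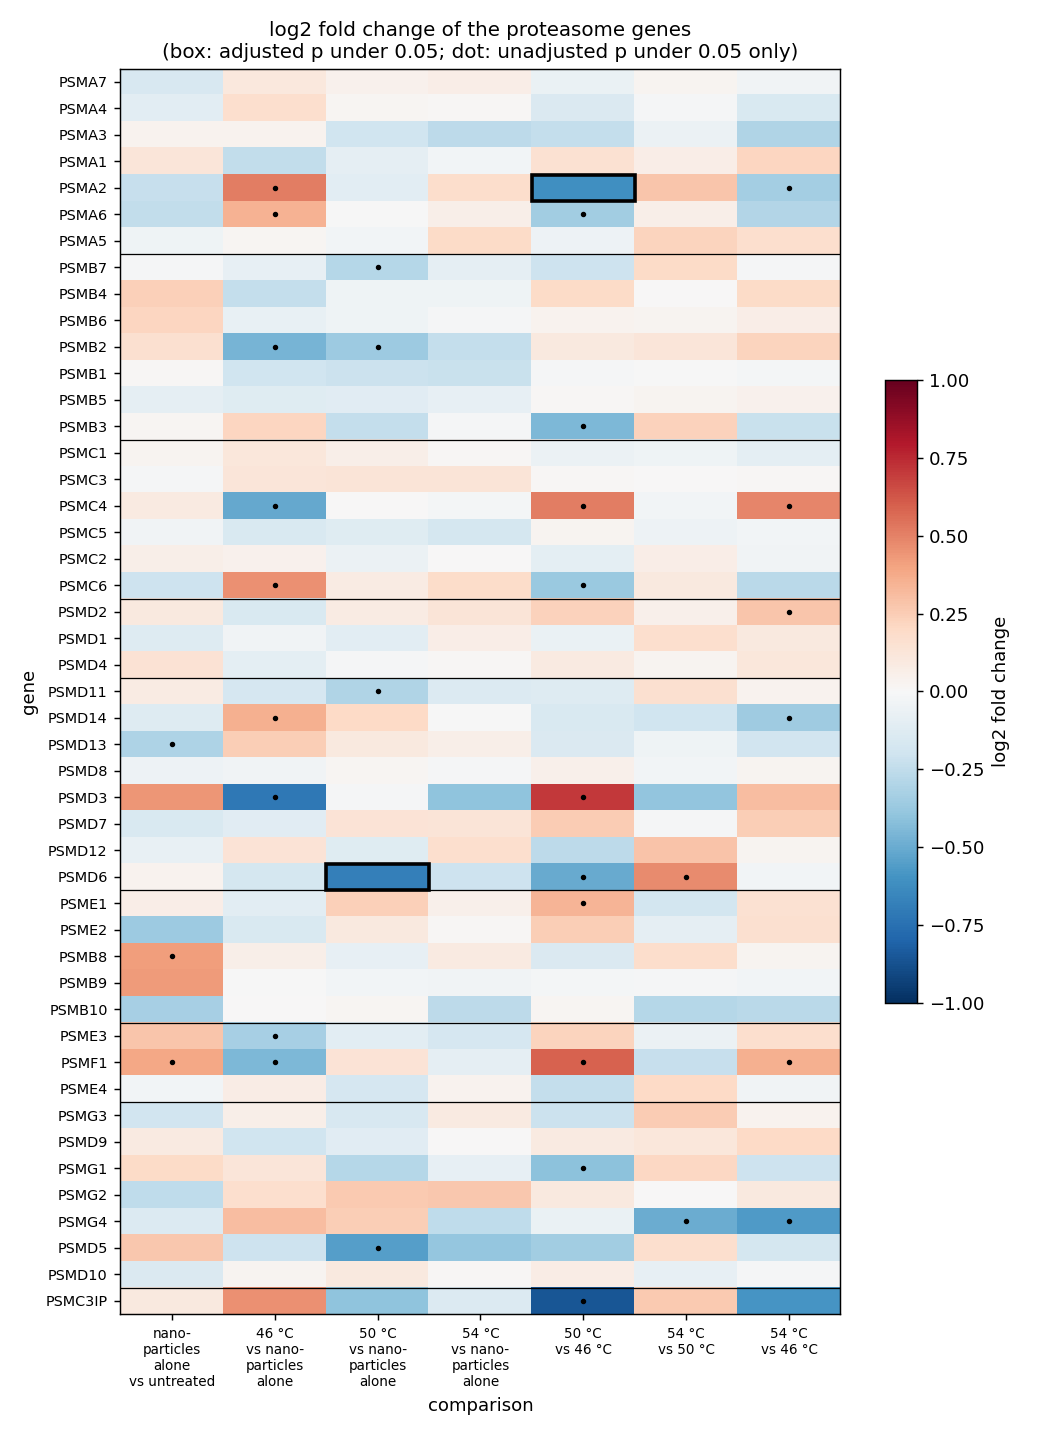
log2 fold change of each of the 47 genes (rows, by role and then by level) in the 7 comparisons (columns; red is higher and blue lower in the group named first). A box marks an adjusted p under 0.05 and a dot an unadjusted p under 0.05 only. The 2 boxes are PSMD6 at 50 °C against nanoparticles alone (-0.68) and PSMA2 at 50 °C against 46 °C (-0.61).

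Other genes of the ubiquitin and proteasome pathway that do not carry a PSM name were counted as a list of 28, all tested. UBB, which encodes a chain of ubiquitin units, had 612.2 ± 16.8 CPM at 46 °C and 507.9 ± 16.5 CPM in the nanoparticles-alone group (0.27 ± 0.11; adjusted p = 0.307), and it did not pass in any comparison.

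USP14, a deubiquitinase bound to the 19S base, fell at 50 °C, the condition in which PSMD6 fell. It had 121.5 ± 7.69 CPM at 50 °C and 176.4 ± 19.1 CPM in the nanoparticles-alone group (-0.54 ± 0.14; adjusted p = 0.0283), and it rose at 54 °C against 50 °C, with 182.1 ± 25 CPM at 54 °C (0.58 ± 0.14; adjusted p = 0.0401). UBA1, the main enzyme that activates ubiquitin, rose at 50 °C against 46 °C, with 268.7 ± 15.9 CPM at 50 °C and 177.6 ± 13 CPM at 46 °C (0.60 ± 0.14; adjusted p = 0.0118). The list thus had 0 genes higher and 1 lower at 50 °C against nanoparticles alone, where 1.22% of all tested genes were called. At an unadjusted p under 0.05 there were 9 of the 28 in that comparison, against 11.4% of all tested genes, which were not matched for level. By edgeR none of the 28 passed for nanoparticles alone against untreated cells or for 54 °C against nanoparticles alone. At an unadjusted p under 0.05 there was 1 in each, against 3.94% and 5.75% of all tested genes, and DESeq2 called 0 in both. At 50 °C against 46 °C DESeq2 also called UBA1 higher, and it called USP14 lower.

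POMP, SEM1, ADRM1, UCHL5 and NFE2L1 did not pass in any comparison. POMP, the chaperone of the beta ring, had 448.3 ± 95.2 CPM in the nanoparticles-alone group and 408.9 to 526.3 CPM in the laser groups. SEM1, a small lid subunit, had 346.9 ± 35.9 CPM at 46 °C and 287 ± 36.9 CPM in the nanoparticles-alone group (0.27 ± 0.14), and ADRM1, a ubiquitin receptor, had 186.4 ± 32 CPM at 46 °C and 244.3 ± 23.7 CPM in the nanoparticles-alone group (-0.39 ± 0.15; adjusted p = 0.232). UCHL5, which binds ADRM1, had group means of 63.9 to 87.2 CPM. NFE2L1 had 110.1 ± 20.1 CPM at 50 °C and 83 ± 9.73 CPM in the nanoparticles-alone group (0.41 ± 0.17; adjusted p = 0.278).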

How the data were processed

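The authors deposited 1 table of estimated counts per gene for 20 samples, and per the submitters' processing notes STAR, Salmon and the build GRCh38 were used. Their versions, the annotation, the strand setting and any use of molecular identifiers are not given in the sources consulted. Per the labels' protocols the libraries were made with a QuantSeq 3′ FWD kit from total RNA. The expected counts were rounded, since 1.74% to 2.9% of a library's deposited values had decimals.

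The test was the quasi-likelihood test of edgeR 4.0.16 (R 4.3.3, limma 3.58.1), robust, after TMM scaling and filterByExpr (count 10, total 15), with all 20 samples and 5 groups in 1 model. Each p adjusted with Benjamini-Hochberg is over 12149 genes, and a gene was called under 0.05. DESeq2 1.42.0, 2 other scalings, no filter, the replicate terms and pairs, only the groups compared, and leaving out each library were alternatives. Precision depends on depth, and PCR copies of a molecule are not independent of each other. The script was tested on simulated counts.

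Named with values were the called members, the catalytic, activator, inhibitor and assembly genes with PSMD4 and PSMD14, and the highest and lowest member of each role. Others are marked as chosen after their values were seen, apart from those in sentences on an unadjusted threshold, which are the genes under it. Members and lists were chosen with earlier results of these data known. Replicates of a group correlated at 0.891 to 0.942 and differed by a chi-square of at least 7.54 per gene, so each was counted. Positions are from GENCODE v29 and promoters from RefSeq. Some results of the pathway list are not reported here.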

Additional observations from a re-analysis of the deposited data

Results flagged for a closer look

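Among 150 groups of 4 samples over the 30 named genes, 7 held a sample far from the other 3, and chance gives about 1 in 20. PSMB5 had 239.9 CPM in untreated replicate 1, with 176.9 to 182.4 CPM in the other 3. PSMC6 had 128.6 CPM in 54 °C replicate 2, with 103.7 to 105.5 CPM in the others. PSMD4 had 124.6 CPM in 46 °C replicate 3, with 162.9 to 168.5 CPM in the others, and 181 CPM in nanoparticles-alone replicate 1, with 159.7 to 163.1 CPM in the others. PSMD6 had 105.8 CPM in untreated replicate 3, with 92.22 to 93.39 CPM in the others. PSME2 had 79.06 CPM in 46 °C replicate 2, with 45.06 to 48.85 CPM in the others. PSME3 had 179.8 CPM in 46 °C replicate 3, with 131 to 134.9 CPM in the others. None of these samples belongs to a group in a called comparison of its gene.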

How the results depend on the processing

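The 7 comparisons kept their counts of called members under DESeq2 size factors, without the filter and with only the groups compared in the fit. Samples of the same replicate number in different groups deviated together only weakly. Over 40 pairs the correlation of deviations was 0.022 to 0.066, so all were positive and 0 exceeded 0.1, and 21 pairs correlated best with their own number. That is more than an even draw among the 4 replicate numbers would give, so a weak pairing by number remains possible. Correlations over all genes cannot exclude a difference between replicates that is shared by the groups. With the replicate block, 46 °C against nanoparticles alone had 1 member higher (PSMA2) and 2 lower (PSMD3 and PSMB2), 50 °C against 46 °C had 3 higher (PSMC4, PSMD3 and PSMF1), and PSMD6 and PSMA2 had adjusted p of 0.0061 and 0.000836. Over all genes the block called 2.21% at 46 °C against nanoparticles alone and 2.91% at 50 °C against 46 °C, where the model without it called 0.963% and 1.19%. With the term for replicates 1 and 2 against 3 and 4 the member counts were 1, 2 and 2, with 2.16% and 2.81% of all genes. Within replicates 1 and 2 there were 1 higher (PSMC6) and 3 lower (PSMC4, PSMD3 and PSMB2) at 46 °C against nanoparticles alone, 0 lower at 50 °C against nanoparticles alone, 1 higher at 50 °C against 46 °C and 1 higher at 54 °C against 46 °C (PSMC4 in both), with 2.1%, 1.75%, 1.9% and 1.73% of all genes called in these 4 comparisons. Within replicates 3 and 4 there were 1 lower at 46 °C (PSMD3) and 0 lower at 50 °C, each against nanoparticles alone, and 1 higher (PSMD3) and 0 lower at 50 °C against 46 °C, with 0.529%, 0.504% and 0.62% of all genes. DESeq2 gave 2 members higher and 2 lower at 50 °C against 46 °C, and over all genes it called 109 higher and 82 lower at 46 °C and 140 and 148 at 50 °C against nanoparticles alone, where edgeR called 75 and 42, and 64 and 84. Leaving out 1 library gave 0 to 1 lower at 46 °C (PSMC4, without 46 °C replicate 4 or nanoparticles-alone replicate 3) and 0 to 1 lower at 50 °C against nanoparticles alone, 0 to 1 higher (PSMF1 without 46 °C replicate 2, PSMC4 without replicate 4) and 0 to 1 lower at 50 °C against 46 °C, and 0 to 1 higher at 54 °C against 46 °C (PSMC4, without 46 °C replicate 4). Scaling by library totals shifted the median of all genes to -0.10 at 50 °C against nanoparticles alone and to -0.18 at 50 °C against 46 °C, with members at -0.16 and -0.22 and 3 members lower in the second (PSMA2, PSMD6 and PSMB3). It changed the calls over all genes to 50 higher and 227 lower in the first, against 64 and 84 with TMM, and to 46 and 374 in the second, against 71 and 74. At 46 °C against nanoparticles alone it gave 95 and 33, against 75 and 42, at 54 °C against 50 °C 22 and 16, against 7 and 17, and at 54 °C against 46 °C 21 and 81, against 29 and 48. PSMD6 at 50 °C against nanoparticles alone stayed between -0.83 and -0.54 and PSMA2 at 50 °C against 46 °C between -0.78 and -0.51 over the 17 alternatives of each, while medians and uncalled members near zero took either sign. The cause of these changes was not tested. DESeq2 gave no adjusted p for PSMB10, PSMD10 and PSMC3IP in 2 comparisons.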
